A study of Mus musculus with 32 samples.

Results

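The 9 genes described here encode transcription factors that are enriched in liver: Hnf4a, Cebpa, Onecut1, Prox1, Nr1h4, Nr1i2, Nr1i3, Nr5a2 and Ppara. They were taken by symbol from a deposited table of MeDIP-seq values for 27179 genes, and all 9 were found there. MeDIP-seq uses an antibody against methylated cytosine (5mC) to pull down DNA fragments, so a higher value means more precipitated reads on a gene. Brain, heart, kidney and liver were taken from mice, and each organ was either flash-frozen or formalin-fixed and paraffin-embedded (FFPE). No genetic or drug treatment is named for any group, and the labels state no strain, sex or age of the mice. The table has 8 columns, 1 for each organ and preservation, each called a library below. The column names carry neither antibody nor replicate number, and the values were read as 5mC precipitates. Unprecipitated Input DNA was not analysed here. Organs were processed as bulk tissue, so a low value from few methylated cells and one from few methylated copies in every cell cannot be told apart.

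Hepatocyte identity rests on a network of such factors that bind one another's genes. HNF4A is an orphan nuclear receptor that acts as a central regulator of hepatocyte genes and also works in the kidney proximal tubule. C/EBP alpha, encoded by Cebpa, drives metabolic genes in hepatocytes and adipocytes and is also a myeloid factor. The nuclear receptors FXR (Nr1h4), PXR (Nr1i2), CAR (Nr1i3) and PPAR alpha (Ppara) sense bile acids, foreign compounds and fatty acids, and bind DNA with the retinoid X receptor RXR alpha (Rxra). DNA methylation near the start of a gene is often low in tissues where the gene is active.

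The reads counted on genes ran from 2164158 in FFPE kidney to 3699218 in frozen liver, and 880 to 2999 genes per library had no read. A count of 0 allows up to 3 reads, which corresponds to 0.876 to 1.42 CPM (reads scaled to an effective library size, as the table gives them in log2) in these libraries. Intervals on reads are exact Poisson 95% intervals and, like that limit, cover counting error only. The effective size differed from the reads on genes in both directions. It was 2.64e+06 against 3102535 reads in FFPE liver, and 3.35e+06 against 3050175 in FFPE brain. Marker lists were chosen with earlier results of these data known, so they give no independent check on the organ labels. By the test described below, 9 of 10 hepatocyte marker genes were lower in liver. Their summed values were 115 and 138 CPM in liver against 270 to 404 CPM elsewhere. Of 7 leukocyte and macrophage markers 3 were lower in liver, with sums of 82.6 and 112 CPM against 109 to 266 CPM. Without FFPE liver these counts were 5 and 0. Of 6 cholangiocyte markers 2 were higher. In the other organs, 4 of 6 neuron markers and 1 of 6 glial markers were lower in brain, 2 of 6 cardiomyocyte markers were lower in heart, and 0 of 6 proximal tubule markers were called by limma in kidney, with 0 at an unadjusted p under 0.05. Over all tested genes, 7.42% were called lower and 11.8% higher in liver, 12.8% lower in brain and 1.97% lower in heart. Without FFPE liver the all-gene share called lower in liver fell too. No marker gene was at 0 in all libraries, and the part of cell composition in the results below was not tested.

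Liver was compared with the mean of the other 3 organs by limma's moderated test, with organ and preservation as terms. Its error term held the change of organ differences with preservation and a spread shared over genes, but no spread between replicates of a group. A gene is called when its p-value, adjusted by Benjamini-Hochberg over 25982 tested genes, is under 0.05. All 9 genes passed the filter on low values. Of these, 3 were lower in liver (Cebpa, Nr1i3 and Hnf4a) and 0 were higher. Over all tested genes, 7.42% were called lower and 11.8% higher. The differences of the 9 genes had a median of -0.54 on the log2 scale, against -0.10 for all tested genes, and 8 of 9 were below 0. Most tested genes were below 0 too, and 62.2% lay below the ninth, Ppara at 0.12. Of the 8, Prox1 and Nr1i2 turned above 0 after median centring. The calls in liver rest on the trend of variance with signal that the test includes. Without that trend, limma called 0 of 25982 genes in liver, with 7101 at an unadjusted p under 0.05. With the trend, 8460 genes and 4 of the 9 were under that limit. Scaling also matters for the direction of calls. Of all calls in liver, 61.3% were higher, against 50.6% after quantile normalisation and 79.6% after centring each library on its median, which shifted the all-gene median from -0.10 to 0.10.

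**Figure D1:**
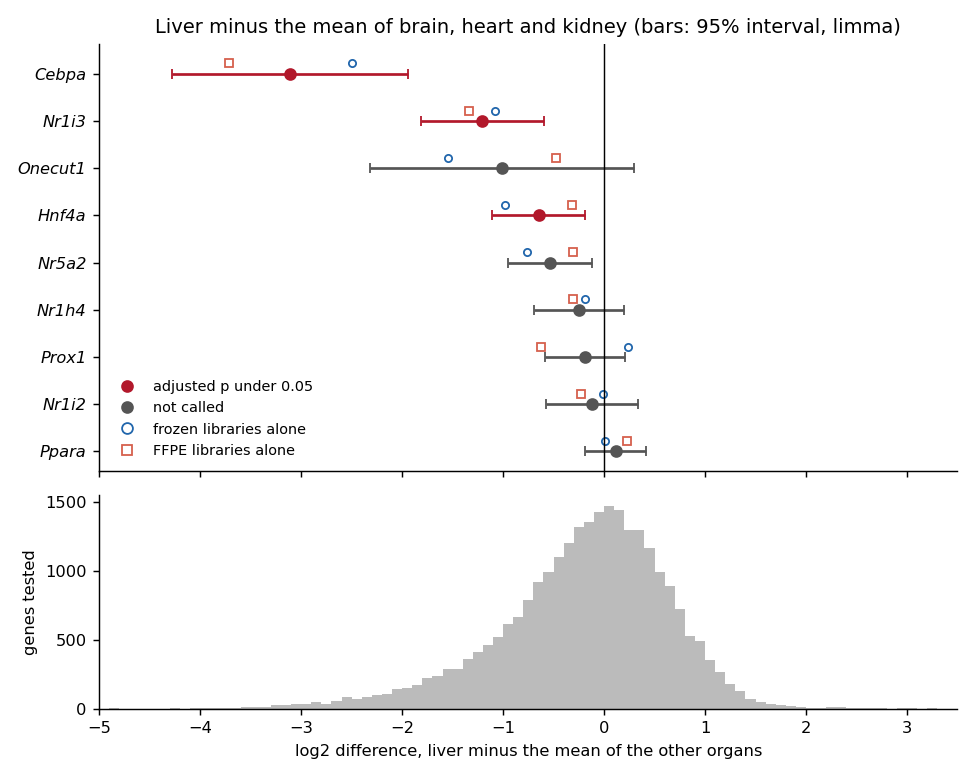
Difference between liver and the mean of brain, heart and kidney (log2 scale, x axis) for the 9 genes in the upper panel, with 95% intervals from limma and the values of frozen and FFPE libraries alone as open symbols. The lower panel counts all 25982 tested genes by the same difference. Cebpa lies at -3.11, Nr1i3 at -1.21 and Hnf4a at -0.65, and the other 6 were not called.

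Of the 9 genes, Cebpa had the largest liver difference. The gene is compact, spanning 2636 bases on chromosome 7 (chr7:35119293-35121928, RefSeq on GRCm38.p6, plus strand). Its start lies in CpG-rich sequence. The RefSeq window from 250 bases before to 50 bases after the annotated start (chr7:35119043-35119342) is shown with each CpG in capitals, because the CpG is the site that 5mC occupies and this window holds 29 of them.

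Cebpa start window: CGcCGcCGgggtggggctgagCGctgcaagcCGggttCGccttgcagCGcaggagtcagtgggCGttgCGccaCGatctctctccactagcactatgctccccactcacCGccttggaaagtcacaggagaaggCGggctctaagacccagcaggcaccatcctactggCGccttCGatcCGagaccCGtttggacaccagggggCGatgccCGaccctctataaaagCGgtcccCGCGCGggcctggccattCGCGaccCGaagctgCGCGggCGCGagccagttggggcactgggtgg

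Cebpa had 63 reads in frozen brain, 48 in FFPE brain, 19 in frozen heart, 31 in FFPE heart, 22 in frozen kidney, 22 in FFPE kidney, 6 in frozen liver and 2 in FFPE liver. In CPM these were 26.3, 14.3, 6.67, 12.3, 6.68, 10.4, 1.75 and 0.758 in the same order. Both liver libraries lay below the other 6, a pattern found in 10.3% of tested genes, and both brain libraries lay above the other 6, as in 16.5% of tested genes. FFPE liver was under the limit that a count of 0 allows. On the log2 scale the liver mean lay 3.11 ± 0.55 (SE) below that of the other organs, an 8.62-fold difference (limma, adjusted p = 0.00117, 95% interval -4.28 to -1.94). The difference was -2.50 in frozen libraries alone and -3.72 in FFPE libraries alone, values with no test of their own. From the reads, liver was 6.95 times lower in frozen tissue (95% counting interval 3.09 to 19.4) and 16.7 times lower in FFPE tissue (4.51 to 140). Leaving out any library kept the call, with adjusted p from 4.51e-05 to 0.0477, the highest without FFPE liver. Without the variance trend the adjusted p was 0.0748.

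Nr1i3 encodes CAR, a receptor that switches on drug-metabolising genes in hepatocytes. It spans 4912 bases on chromosome 1 (chr1:171213934-171218845, plus strand). Its start window (chr1:171213720-171214019) is shown in the same way, as a contrast to Cebpa: it holds only 3 CpG.

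Nr1i3 start window: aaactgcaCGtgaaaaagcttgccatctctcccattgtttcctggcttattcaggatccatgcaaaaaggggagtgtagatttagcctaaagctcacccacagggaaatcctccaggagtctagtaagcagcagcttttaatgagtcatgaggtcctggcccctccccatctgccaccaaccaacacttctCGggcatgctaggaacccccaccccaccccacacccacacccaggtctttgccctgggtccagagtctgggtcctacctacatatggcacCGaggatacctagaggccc

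Nr1i3 had 22.5 and 18.2 CPM in frozen and FFPE brain, 23.2 and 26.2 in heart, 29.1 and 23.2 in kidney, and 11.7 and 8.71 in liver. The liver values rest on 40 and 23 reads, and both lay below the other 6 libraries, as in 10.3% of tested genes. The other organs lay close together, with brain below heart. The liver difference was -1.21 ± 0.29 on the log2 scale, or 2.31-fold (limma, adjusted p = 0.00818, 95% interval -1.82 to -0.60). It was -1.08 in frozen and -1.34 in FFPE tissue. The call was lost without FFPE liver (adjusted p = 0.124, limma), without frozen liver (0.0623) and after quantile normalisation (0.0598).

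Hnf4a spans 66097 bases on chromosome 2 (chr2:163506811-163572907, plus strand) and is read from alternative promoters. RefSeq start windows of the upstream promoter (chr2:163506607-163506906) and the downstream promoter (chr2:163546905-163547204) are both shown, since each holds only 4 CpG.

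Hnf4a upstream start window: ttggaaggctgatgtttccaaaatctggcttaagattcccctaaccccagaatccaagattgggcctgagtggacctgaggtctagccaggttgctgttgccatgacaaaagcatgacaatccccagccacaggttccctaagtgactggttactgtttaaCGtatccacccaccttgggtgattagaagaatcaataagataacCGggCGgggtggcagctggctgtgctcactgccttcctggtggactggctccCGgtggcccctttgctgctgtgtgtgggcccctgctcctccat

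Hnf4a downstream start window: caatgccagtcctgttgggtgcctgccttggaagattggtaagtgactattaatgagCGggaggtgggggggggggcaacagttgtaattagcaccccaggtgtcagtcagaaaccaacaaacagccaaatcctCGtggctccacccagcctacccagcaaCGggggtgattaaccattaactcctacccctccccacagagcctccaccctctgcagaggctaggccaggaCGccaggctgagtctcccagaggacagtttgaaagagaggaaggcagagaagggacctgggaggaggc

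Hnf4a had 63.4 and 81.5 CPM in frozen and FFPE brain, 75.8 and 61.1 in heart, 53.1 and 33.6 in kidney, and 32.1 and 44.3 in liver. All 4 brain and heart libraries lay above all 4 kidney and liver libraries, which holds for 8.44% of tested genes. Kidney and liver overlapped, as did brain and heart. Against the other 3 organs, liver was lower by a log2 difference of -0.65 ± 0.22, or 1.57-fold (limma, adjusted p = 0.0477). The difference was -0.98 in frozen and -0.31 in FFPE tissue. The call was lost without FFPE brain (adjusted p = 0.118, limma), FFPE heart (0.0721), frozen heart (0.136), FFPE liver (0.067) or frozen liver (0.594). It was also lost after median centring (0.162), with no filter on low values (0.0573) and with no preservation term (0.0716). The kidney, the other organ in which HNF4A works, differed from liver by 0.16 on the log2 scale (liver minus kidney -0.16 ± 0.27, adjusted p = 0.796, 95% interval -0.73 to 0.40). Kidney minus the mean of the other 3 organs was -0.43 ± 0.22 and was not called (limma, adjusted p = 0.304). Brain minus kidney (0.76, adjusted p = 0.0606, limma) and heart minus kidney (0.69, adjusted p = 0.185) were not called either.

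**Figure D2:**
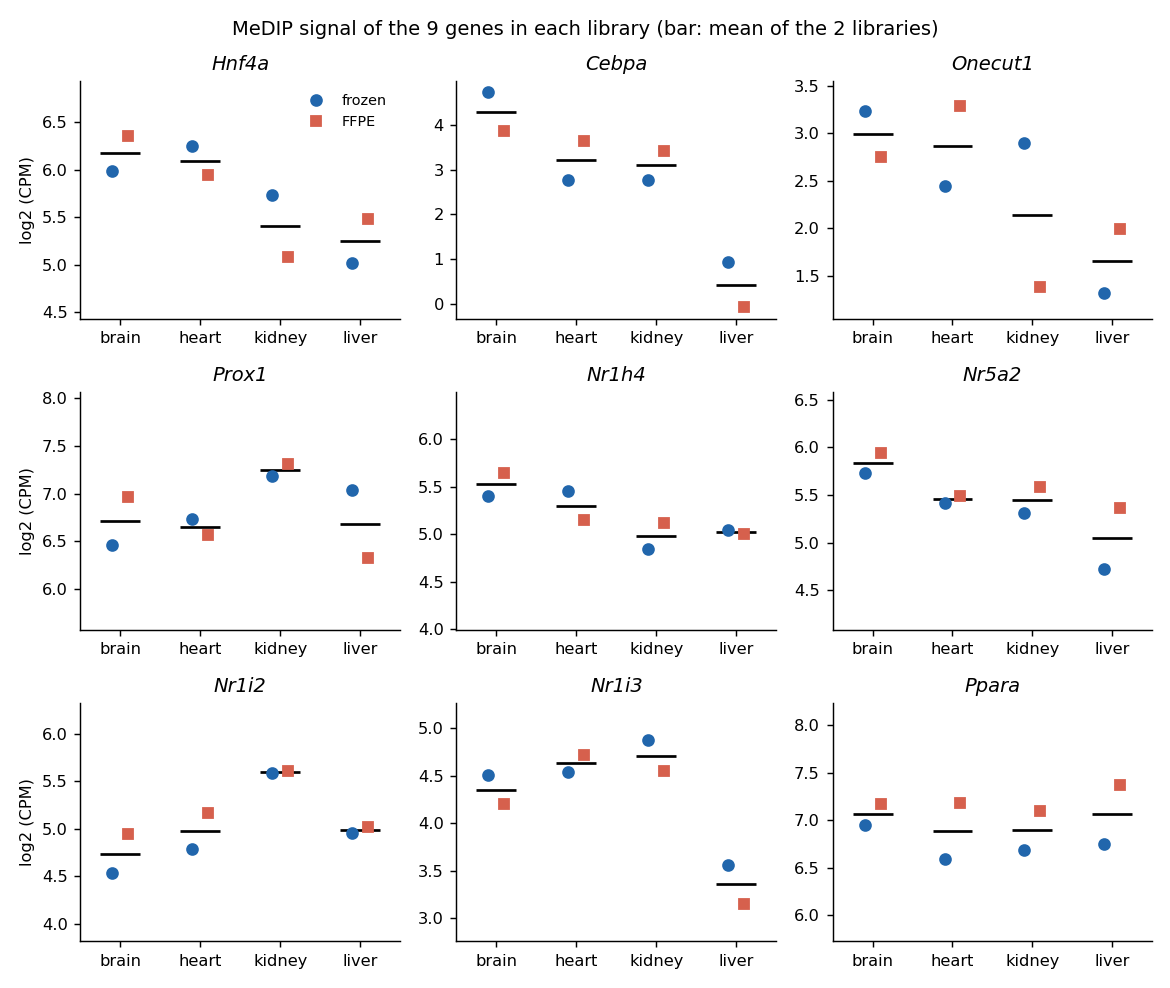
Deposited log2 values (y axis, log2 CPM) of the 9 genes in each organ, with frozen and FFPE libraries as separate points. Cebpa and Nr1i3 have both liver points below all others, and Hnf4a has brain and heart above kidney and liver.

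Onecut1 encodes HNF6, which acts in hepatocyte and bile duct development. Its start window on chromosome 9 (chr9:74861671-74861970, plus strand) is the richest of the set, with 38 CpG, and is shown because only 5 to 24 reads fell on the gene in any library.

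Onecut1 start window: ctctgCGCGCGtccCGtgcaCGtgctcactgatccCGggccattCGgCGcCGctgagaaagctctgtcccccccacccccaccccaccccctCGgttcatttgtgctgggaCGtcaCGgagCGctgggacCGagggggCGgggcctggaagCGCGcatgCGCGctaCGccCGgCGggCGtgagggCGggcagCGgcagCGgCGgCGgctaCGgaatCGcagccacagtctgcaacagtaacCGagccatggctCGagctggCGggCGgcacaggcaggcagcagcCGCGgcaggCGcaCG

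Onecut1 had 22 and 22 reads in frozen and FFPE brain, 15 and 24 in heart, 24 and 5 in kidney, and 8 and 10 in liver. The liver libraries overlapped FFPE kidney, which had the fewest reads. With a log2 difference of -1.01 ± 0.62, liver was not called (limma, adjusted p = 0.276), and the 95% interval ran from -2.31 to 0.29. At this depth the 95% counting interval for FFPE kidney, 1.62 to 11.7 reads, includes the count of both liver libraries.

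Prox1, a factor of hepatoblasts and lymphatic endothelium, had 88.0 and 125 CPM in frozen and FFPE brain, 106 and 94.1 in heart, 146 and 158 in kidney, and 131 and 79.9 in liver. Both kidney libraries lay above the other 6, as in 3.53% of tested genes. Kidney minus the other organs was 0.57 ± 0.19 (log2), which was not called (limma, adjusted p = 0.122). In liver the direction differed by preservation, with 0.24 in frozen and -0.62 in FFPE tissue.

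Nr5a2 encodes LRH-1, which with FXR controls bile acid synthesis. It had 52.9 and 61.2 CPM in frozen and FFPE brain, 42.5 and 44.9 in heart, 39.5 and 47.7 in kidney, and 26.3 and 40.9 in liver. Both brain libraries lay above the other 6, as in 16.5% of tested genes. FFPE liver exceeded frozen kidney, so liver overlapped the other organs. The liver difference of -0.54 ± 0.19 (log2) was not called (limma, adjusted p = 0.065). It was called without FFPE kidney (adjusted p = 0.0427, limma) and without frozen kidney (0.0421).

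Nr1h4, the FXR gene, ranged from 28.5 CPM in frozen kidney to 49.9 CPM in FFPE brain. Its liver values of 32.7 and 31.8 CPM lay inside the kidney range. The liver difference was -0.25 ± 0.21 (log2, 95% interval -0.69 to 0.20) and was not called (limma, adjusted p = 0.448).

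Nr1i2, the PXR gene, had 22.9 and 30.8 CPM in frozen and FFPE brain, 27.4 and 35.7 in heart, 48.0 and 48.7 in kidney, and 31.0 and 32.2 in liver. Both kidney libraries lay above the other 6, which holds for 3.53% of tested genes. Brain was lower than kidney by a log2 difference of -0.86 ± 0.26 (limma, adjusted p = 0.0362), where 9.65% of all genes were called lower. That pair of organs was added after values were seen. The call was lost without frozen brain, FFPE brain, either heart library or frozen kidney. It was also lost with array quality weights (adjusted p = 0.0726, limma), no preservation term (0.0593) or no variance trend (0.135). The liver difference was -0.12 ± 0.21 (log2, adjusted p = 0.753).

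Ppara, whose protein turns on fatty acid oxidation in fasting, had the flattest profile across organs. Its start window on chromosome 15 (chr15:85735526-85735825, plus strand) holds 30 CpG, close to the 29 of Cebpa, and is shown for that comparison.

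Ppara start window: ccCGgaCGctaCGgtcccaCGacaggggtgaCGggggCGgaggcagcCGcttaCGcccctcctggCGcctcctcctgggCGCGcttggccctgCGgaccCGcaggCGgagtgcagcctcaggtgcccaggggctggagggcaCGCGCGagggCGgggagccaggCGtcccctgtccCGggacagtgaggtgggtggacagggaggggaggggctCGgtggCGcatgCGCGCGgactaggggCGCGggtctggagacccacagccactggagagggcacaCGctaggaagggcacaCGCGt

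Ppara had 124 and 144 CPM in frozen and FFPE brain, 96.2 and 145 in heart, 103 and 137 in kidney, and 108 and 166 in liver. The organs overlapped throughout. The liver difference was 0.12 ± 0.14 (log2, 95% interval -0.19 to 0.42, limma, adjusted p = 0.621). Ppara is the only one of the 9 with a liver difference above 0, and it turned to -0.30 after quantile normalisation, while Prox1 and Nr1i2 turned above 0 after median centring.

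Values per length adjust for gene span only. With no correction for CpG content or Input, they do not give methylation levels that can be compared between genes. Per kb of annotated gene span, Cebpa ran from 0.287 CPM per kb in FFPE liver to 9.96 in frozen brain, and Nr1i3 from 1.77 in FFPE liver to 5.93 in frozen kidney. Onecut1 was lowest in this unit, at 0.0843 to 0.344 CPM per kb. No source used here says whether exons or whole gene bodies were counted, so these values depend on the span used.

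**Figure D3:**
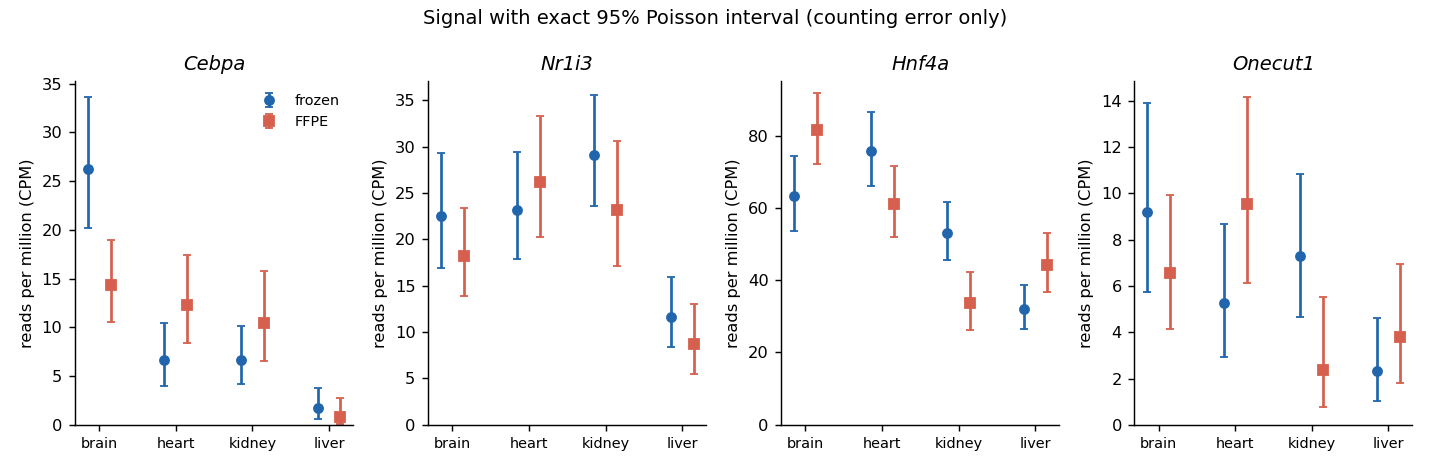
Signal in CPM (y axis, linear) of Cebpa, Nr1i3, Hnf4a and Onecut1 in each of the 8 libraries, with exact Poisson 95% intervals from the reads, which cover counting error only. The liver values of Cebpa, 1.75 and 0.758 CPM, lie under the 6.67 to 26.3 CPM of the other libraries, while those of Onecut1 overlap FFPE kidney.

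Pairwise, liver was compared with each other organ. These comparisons share the liver libraries. Against brain, 4 genes were lower in liver by limma, where 12.7% of all genes were: Cebpa by a log2 difference of -3.87 (adjusted p = 0.000628), Hnf4a by -0.93 (0.0165), Nr5a2 by -0.79 (0.021) and Nr1i3 by -0.99 (0.0453). Only Cebpa stayed called under all alternatives to this comparison. The count fell to 1 without FFPE brain, to 2 without frozen brain and to 1 without frozen liver. Against heart, 3 were lower, where 3.29% of all genes were: Cebpa by -2.79 (adjusted p = 0.013, limma), Nr1i3 by -1.27 (0.0271) and Hnf4a by -0.85 (0.0484). That count fell to 0 without FFPE heart, frozen heart or FFPE liver, and to 1 without frozen liver. Against kidney, limma called 0 of the 9, with 4 at an unadjusted p under 0.05 and 0.754% of all genes lower. Cebpa there had a difference of -2.67 ± 0.68 (adjusted p = 0.0532) and Nr1i3 of -1.35 ± 0.35 (adjusted p = 0.0583). Without FFPE kidney or frozen kidney, 1 gene was called lower.

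In the other organs few of the 9 were called. Brain was higher than the mean of the other 3 for Cebpa, with a log2 difference of 2.05 ± 0.55 (limma, adjusted p = 0.0158), where 8.61% of all genes were called higher. This contrast contains the low liver values. The call was lost without FFPE brain (adjusted p = 0.0805, limma), frozen brain (0.399) or frozen heart (0.0571). Over the 9 genes, the count of 1 became 3 without frozen kidney, and 2 without FFPE kidney or FFPE liver. For heart, limma called 0 of the 9, with 1 at an unadjusted p under 0.05 (1.97% of all genes were called lower and 0.162% higher). For kidney it called 0, with 2 at an unadjusted p under 0.05 (0.566% lower and 0.897% higher).

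Preservation was compared over the 4 organs. FFPE minus frozen gave 0 calls among the 9 by limma, with 1 at an unadjusted p under 0.05, while 0.62% of all genes were called higher and 0.735% lower. That gene was Ppara, at 0.46 ± 0.12 on the log2 scale (adjusted p = 0.101). Its FFPE value was higher in 4 of 4 organs, by 0.22 in brain, 0.59 in heart, 0.40 in kidney and 0.62 in liver. Nr5a2 and Nr1i2 were also higher in FFPE tissue in 4 of 4 organs, as were 10.1% of tested genes. Cebpa had no common direction, with -0.87 in brain, 0.87 in heart, 0.64 in kidney and -1.004 in liver.

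Liver differences of some neighbouring genes follow. These values are totals per gene, so the sequence between genes was not measured. Beside Cebpa, Cebpg 62727 bases away differed by 0.04 ± 0.21 (log2) and the amino acid transporter gene Slc7a10 64167 bases away by 0.29 ± 0.31, neither of them called. Nr1i3 shares 1044 bases with Tomm40l, which differed by -0.73 ± 0.30 (limma, adjusted p = 0.102), and no source used here states strand use in counting, so their shared reads cannot be told apart. Apoa2, an apolipoprotein gene 2719 bases from Nr1i3, was lower in liver with 3 reads in frozen and 1 in FFPE tissue (log2 difference -2.42 ± 0.72, limma, adjusted p = 0.0273). The Apoa2 call was lost without either liver, either brain or either heart library. Hnf4a shares 34911 of its 66097 bases with its antisense gene Hnf4aos, which had 47 reads over all 8 libraries. How reads on that stretch were assigned or dropped is not stated either, which limits the Hnf4a values. Cdpf1, 121 bases from Ppara, was lower in liver by -1.53 ± 0.50 (limma, adjusted p = 0.0423), on 7 and 11 liver reads, and lost its call without any brain, heart or liver library. Smyd2, the neighbour of Prox1 at 195540 bases, was higher by 0.67 ± 0.20 (adjusted p = 0.0258, limma), and the predicted gene Gm8762 beside Nr5a2 was higher by 1.24 ± 0.27 (adjusted p = 0.00414). The Smyd2 call was lost without frozen brain or without any heart or liver library, and the Gm8762 call without FFPE liver.

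All 9 genes have RefSeq start windows, 12 in all. CpG counts set the genes apart by kind of start. Cebpa, Onecut1, Prox1 and Ppara have at least 1 window with 25 to 38 CpG, whereas the windows of Hnf4a, Nr1i2, Nr1i3, Nr1h4 and Nr5a2 hold 2 to 7. The median over all 32851 windows was 7. Among all tested genes with a window, those with up to 6 CpG in their richest window had a median liver difference of -0.45, and 10.5% of the 6211 were called lower. In the 6310 genes with 7 to 22 CpG 7.27% were lower, and in the 5736 with 23 to 67 CpG 4.69% were lower, with a median of 0.13. Hnf4a and Nr1i3 belong to the first class and Cebpa to the last. The deposited value covers the whole gene, so the signal of these windows was not measured on its own.

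**Figure D4:**
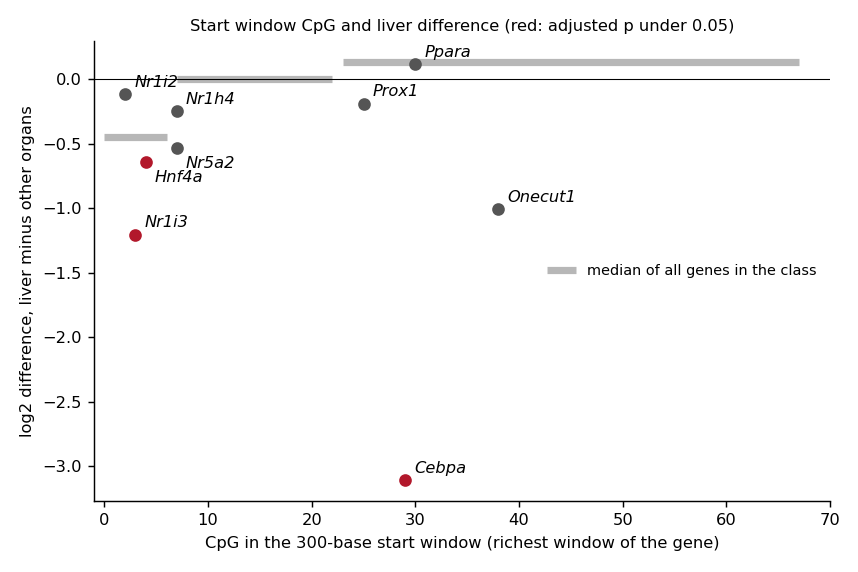
CpG in the richest 300-base start window of each gene (x axis) against its log2 difference between liver and the other organs (y axis). Grey bars span the 3 CpG classes of all tested genes at their medians of -0.45, -0.00 and 0.13. Cebpa and Ppara have 29 and 30 CpG and differences of -3.11 and 0.12.

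Short motifs were searched on both strands of the start windows, and none of the strings contains another. The nuclear receptor core AGGTCA occurred in 2 of the 12 windows, the upstream window of Nr5a2 and the window of Nr1h4, against 16.3% of all windows. CCAAT occurred in 5 of 12, including both Hnf4a windows, against 37.4% of all. The HNF4 core CAAAGTCCA and the C/EBP palindrome TTGCGCAA occurred in 0 of 12, against 0.475% and 0.183% of all windows. A match or its absence describes these letters only.

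Some genes followed the called genes closely over the 8 libraries, among 11926 genes of at least median signal. These likenesses are descriptions across libraries that share depth and organ. Nearest Cebpa were Unc5cl (Pearson r = 0.993, n = 8 libraries) and the apolipoprotein B receptor gene Apobr (r = 0.991). Apobr had 62 and 38 reads in frozen and FFPE liver and 84 to 165 elsewhere. Nearest Nr1i3 were the cell adhesion gene Boc (r = 0.969) and the phospholipase gene Plcd4 (r = 0.968). Nearest Hnf4a were Ppnr (r = 0.967) and Serpinf2 (r = 0.960), which encodes a plasma inhibitor of plasmin made in liver.

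The partners and targets of the 9 were counted in the same liver comparison, where 7.42% of all tested genes were called lower and 11.8% higher. Both shares fell when any brain, heart or liver library was left out, and rose when either kidney library was. List counts given below for such fits therefore have a different background from the main counts. The lists were chosen with earlier results of these data known. RXR alpha is the shared partner of FXR, PXR, CAR and PPAR alpha. Its gene Rxra had 156 and 279 reads in frozen and FFPE brain, 213 and 162 in heart, 172 and 147 in kidney, and 86 and 76 in liver. Rxra was lower in liver (limma, log2 difference -1.32 ± 0.18, adjusted p = 0.00021), and also against brain, heart and kidney taken singly (adjusted p = 0.000277, 0.00107 and 0.0163). The related Rxrb and Rxrg differed by -0.24 ± 0.27 and 0.34 ± 0.18 and were not called. A list of 42 nuclear receptors other than the 9 includes Rxra, Rxrb and Rxrg. It also includes Nr0b2, which is counted again among the bile acid genes below. Of these 42, 8 were lower, Rxra and Nr0b2 among them, and 6 higher in liver, with a median of -0.21. These included Nr4a3, an orphan receptor induced by stimuli, at -1.70, and the circadian repressor gene Nr1d1 at 1.45. Without FFPE liver the counts were 3 lower and 1 higher, without frozen liver 5 and 2, and after quantile normalisation 7 and 3.

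Targets of HNF4A and C/EBP alpha were mostly lower in liver: 10 of 14 tested were called lower and 0 higher, with a median of -1.34. Apob, the structural protein of very low density lipoprotein, differed by -1.36, the gluconeogenic gene Pck1 by -1.33 and the albumin gene Alb by -2.04. Alb had 20 and 22 reads in frozen and FFPE liver and 46 to 146 elsewhere. The count of 10 fell to 4 without FFPE liver, and to 6 without frozen liver, frozen brain or FFPE heart. Several of these genes, Alb among them, are also in the hepatocyte marker list.

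Of 13 bile acid genes under FXR and LRH-1, 6 were lower in liver and 0 higher, with a median of -0.66. Cyp7a1, which limits the rate of bile acid synthesis, differed by -1.59 and Cyp8b1, which sets the type of bile acid made, by -1.42. Nr0b2, the repressor that FXR induces, was called lower too, on 14 reads in frozen and 0 in FFPE liver against 12 to 46 elsewhere. It lost that call without FFPE liver (limma, adjusted p = 0.482), and Cyp7a1 lost its call without frozen liver (adjusted p = 0.0637). The count of 6 fell to 2 without FFPE liver and to 2 without frozen liver, and to 3 after median centring.

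Of 15 drug-metabolism genes under PXR and CAR, 3 were lower and 1 higher, with a median of -0.47. The glutathione transferase gene Gstm1 differed by -1.42 and the bilirubin-conjugating Ugt1a1 by -0.87, while Por, the electron donor of cytochromes P450, was higher by 0.57. After quantile normalisation the Por difference was 0.14 (limma, adjusted p = 0.623), and its call was also lost without frozen heart (0.0658) or frozen liver (0.14). None of the 15 was called without FFPE liver, and without FFPE brain, or without frozen heart, 1 was lower. Without FFPE kidney, 5 were lower. Of 18 PPAR alpha targets, 4 were lower and 0 higher, with a median of -0.18. Among them were the lipid droplet gene Plin2 at -0.87 and Cyp4a10 at -2.06. Plin2 lost its call without FFPE liver (limma, adjusted p = 0.14), and Cyp4a10 without FFPE liver (0.489), FFPE brain (0.0561) or FFPE heart (0.0842). Without FFPE liver 1 PPAR alpha target was lower, and without FFPE brain or FFPE heart 2 were. After median centring 3 were higher and 3 lower.

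Of 24 other liver transcription factors, 6 were higher and 4 lower in liver, with a median of 0.04. Gata4, needed for liver bud growth, had 533 and 410 reads in frozen and FFPE liver and 29 to 113 elsewhere, and was higher by 2.94 ± 0.24 (log2, limma, adjusted p = 1.58e-05). Tbx3, which acts in hepatoblasts, was higher by 1.75 and the circadian factor gene Hlf was lower by -0.88. Without FFPE liver 3 were higher and 3 lower, without frozen liver 2 and 1, without FFPE heart 4 and 2, without frozen heart 4 and 3, and after quantile normalisation 3 and 4. After median centring 10 were higher and 3 lower, and without FFPE kidney 9 and 6. Tbx3 lost its call without FFPE liver (adjusted p = 0.0523, limma) and Hlf without frozen liver (0.0674). Among 12 coregulators 4 were higher and 0 lower, including Ppargc1b at 1.31 and Ncoa3 at 1.17. After quantile normalisation 3 coregulators were higher and 1 lower, and the coregulator median moved from 0.15 to -0.14.

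**Figure D5:**
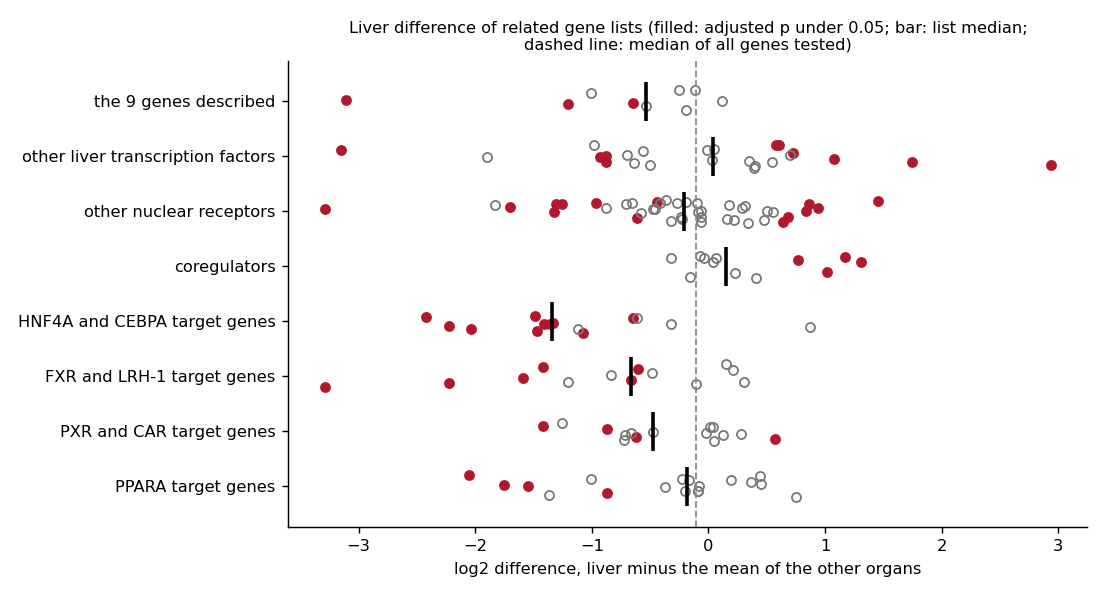
Log2 difference between liver and the mean of the other organs for each gene (points) of the 9 genes and of 7 lists of partners and targets, with list medians. Targets of HNF4A and C/EBP alpha have a median of -1.34 and coregulators one of 0.15, against -0.10 for all tested genes.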

How the data were processed

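The authors deposited 1 table of log2 values for 27179 genes in 8 columns. Reads were aligned to mm10 with Bowtie2, counted with featureCounts and scaled with limma, per the submitters' processing notes, which give no versions, counted feature or strand setting. The labels list 32 samples in 16 groups of 2, of which 16 samples are 5mC precipitates and 16 are Input. No source used here says whether a column pools replicates, or whether replicates came from separate animals.

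The deposited log2 values step as log2 CPM with 0.5 added to each count, and 100% of values gave whole reads within a tolerance of 1e-04. Recovered reads served for depth, floors and Poisson intervals only. The log2 values were fitted with limma 3.58.1 (R 4.3.3) on organ plus preservation, with 5 coefficients, 3 residual and 13.1 prior degrees of freedom and a trend of variance on the mean. The filter asked for 1 CPM or more in 2 or more libraries. It left 25982 genes and dropped 1197. No group has a second column. The p-values therefore set organ differences against how far these changed with preservation and against a spread shared over genes. Spread between replicates of a group did not enter. The script was tested on simulated data that had no trend of variance on the mean, so that test does not bear on calls that rest on the trend. Positions and start windows come from RefSeq on GRCm38.p6 (the mm10 assembly). By Entrez ID, 25275 of 27179 genes (93.0%) had a position.

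All 9 genes are described. From each list the called genes with the smallest p in liver are named, up to 3, with the 2 most alike genes of each called gene and the annotated neighbours. Some genes that this rule names are not reported here. Members and lists were chosen with earlier results of these data known. Marker lists for neurons, glia, cardiomyocytes, proximal tubule and endothelium were also counted, and in liver had 2 higher of 6, 0 of 6, 2 higher of 6, 1 lower of 6, and 2 higher and 3 lower of 6. After quantile normalisation these were 0, 0, 1 lower, 3 lower and 3 lower of 6, with 0 higher in any.

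Alternatives were quantile normalisation, median centring, no filter, log2(CPM + 1), no variance trend, array quality weights, no preservation term, and leaving out each library or both kidney libraries.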

Additional observations from a re-analysis of the deposited data

How the results depend on the processing

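No paired analysis was possible because the columns carry no replicate number. With 1 library per organ and preservation, leaving out 1 assumes that the remaining library of that organ varies like the others. The 16 alternatives kept the sign of the liver difference for Cebpa, Nr1i3, Hnf4a, Onecut1, Nr1h4 and Nr5a2. Prox1 turned to 0.0071 after centring and ranged from -0.62 to 0.24 when single libraries were left out. Nr1i2 turned to 0.081 after centring and to 0.13 without both kidney libraries, and Ppara to -0.30 after quantile normalisation. The causes were not tested. In liver against the other organs, the count of 3 lower genes was 0 without the variance trend and ranged from 1 to 4 when single libraries were left out. The count of 1 higher in brain was 4 after quantile normalisation, 2 on log2(CPM + 1), 0 without the trend, 3 with array quality weights and 3 without both kidney libraries, and 0 to 3 without single libraries. Against brain, the 4 lower genes became 1 after centring and 1 without the trend, with 1 to 4 without single libraries. Against heart, 3 became 1 after quantile normalisation and 0 without the trend, with 0 to 3 without single libraries. Against kidney, 0 became 1 after centring, with 0 to 1 without single libraries. FFPE minus frozen gave 1 higher gene, Ppara, with array quality weights. Over all tested genes, both liver-lower and liver-higher calls dropped from 1929 and 3056 to 494 and 975 without FFPE liver, to 690 and 1032 without frozen liver, and to 0 without the trend, and rose to 4697 and 4687 without both kidney libraries. Depth limits Cebpa and Onecut1, whose liver counts were 2 to 10 reads.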

Other observations

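Nuclear receptors and coregulators were also counted in brain, in a contrast that contains the liver libraries. Among the 42 other nuclear receptors, limma called 10 higher and 10 lower in brain than in the mean of the other 3 organs, with a median log2 difference of 0.20 against 0.11 for all tested genes, where 8.61% were called higher and 12.8% lower. Of the 12 coregulators, 6 were lower in brain and 0 higher, and 11 of 12 differences were below 0, with a median of -0.42.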
